A study of Homo sapiens with 8 samples.

Results

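The genes described here make and load the peptides that HLA class I molecules present: the immunoproteasome subunits PSMB8, PSMB9 and PSMB10, the proteasome activator subunits PSME1 and PSME2, the peptide transporter genes TAP1 and TAP2, the tapasin gene TAPBP, and the aminopeptidase genes ERAP1 and ERAP2. They were chosen by symbol for their known roles and with earlier results of these data known. All 10 were found among the 16525 genes of the deposited expression table. The cells were EndoC-βH5, an established human beta-cell line of fetal pancreatic origin from which the immortalizing transgenes (SV40LT and hTERT) had been removed, supplied as frozen vials and grown in duplicate wells. The 4 control libraries came from untreated cells, and the 4 cytokine libraries from cells given 3 cytokines together, IL-1β at 50 U/mL and both IFNγ and TNFα at 1000 U/mL. Both groups were taken at 48 h, and they shared line, medium and plate coating. The 8 libraries come from 1 cell line and cannot speak of differences between donors. The labels do not say whether the replicates were separate cultures, so p-values measure only the spread between these libraries.

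The proteasome cuts cytosolic proteins into peptides in a barrel-shaped core particle with catalytic subunits of different cutting preference. Interferon is known to induce alternative catalytic subunits, which replace their constitutive counterparts in newly assembled cores (PSMB8 for PSMB5, PSMB9 for PSMB6, PSMB10 for PSMB7) and favour the peptide ends that class I molecules bind. The TAP1 and TAP2 proteins together form the transporter that moves peptides into the endoplasmic reticulum, tapasin tethers empty class I molecules to it, and ERAP1 and ERAP2 trim the peptides there. In pancreatic islets, class I hyperexpression on beta cells is a known feature of type 1 diabetes.

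Start-site windows from RefSeq (GRCh38.p14) were at hand for 6 of the 10 genes (TAP2, TAPBP, PSMB9, PSMB10, PSME1 and PSME2). They are shown because 5 of these 6 held the same short element, the core of the interferon-stimulated response element. The printed stretch runs from 100 bases before the start site to 30 bases after it, 5′ to 3′ on the gene's strand, with matches to the searched motifs in capitals. Its coordinates are chr6:32838710-32838839 on the minus strand for TAP2, chr6:33314049-33314178 on the minus strand for TAPBP and chr6:32854092-32854221 on the plus strand for PSMB9. They are chr16:67936821-67936950 on the minus strand for PSMB10, chr14:24136094-24136223 on the plus strand for PSME1 and chr14:24146581-24146710 on the minus strand for PSME2.
PSMB9: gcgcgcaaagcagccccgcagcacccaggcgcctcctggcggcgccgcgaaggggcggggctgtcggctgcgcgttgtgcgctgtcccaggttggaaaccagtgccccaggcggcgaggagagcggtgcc
PSMB10: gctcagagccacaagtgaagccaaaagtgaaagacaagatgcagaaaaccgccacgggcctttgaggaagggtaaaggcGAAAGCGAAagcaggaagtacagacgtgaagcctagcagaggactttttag
PSME1: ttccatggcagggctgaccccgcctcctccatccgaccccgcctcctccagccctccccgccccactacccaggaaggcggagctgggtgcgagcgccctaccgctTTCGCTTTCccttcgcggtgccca
PSME2: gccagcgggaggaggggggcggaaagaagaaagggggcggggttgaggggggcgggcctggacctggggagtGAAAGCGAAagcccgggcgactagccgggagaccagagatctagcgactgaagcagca
TAP2: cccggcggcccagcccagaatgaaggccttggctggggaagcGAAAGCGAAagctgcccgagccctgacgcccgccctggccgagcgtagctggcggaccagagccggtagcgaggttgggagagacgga
TAPBP: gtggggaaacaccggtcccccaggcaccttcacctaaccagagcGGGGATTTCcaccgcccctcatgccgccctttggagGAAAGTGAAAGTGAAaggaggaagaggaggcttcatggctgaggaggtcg

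The 3 motifs were searched on both strands of the whole window, which runs from 250 bases before the start to 50 after it. The response-element core GAAANNGAA began 58 bases before the start in TAP2, 21 bases before it in PSMB10 and 28 bases before it in PSME2. In TAPBP it occurred at 20 and at 14 bases before the start in overlapping copies, and in PSME1 it lay on the opposite strand from position 7 after the start. PSMB9 had no match in its window, whose first bases (from chr6:32853942) reach over the 5′ end of TAP1. Of all 35116 windows of the same length, 2847 (8.11%) held this core. The gamma-activated site TTCNNNGAA was in none of the 6 windows and in 2689 of all windows (7.66%). The kappa-B motif GGGNNTTTC was in TAPBP alone of the 6, starting 56 bases before its start, and in 1680 of all windows (4.78%). A match is a run of letters and not evidence of binding, and an absent match speaks only of these letters in this window.

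All 10 genes rose with cytokines, and in every one of them the lowest cytokine library stood above the highest control library. The rise ran from 3.12-fold for ERAP1 to 271-fold for PSMB9 as ratios of mean CPM, and the median log2 fold change of the 10 was 4.38 (range 1.65 to 7.94). Together they held 230 to 260 CPM (0.023% to 0.026% of a library) in control cells and 2924 to 3498 CPM (0.292% to 0.35%) after cytokines. CPM are reads per 1000000 of the library total. Calls were made on log2(CPM + 0.1), a scale that understates the change of low genes, and needed a log2 change of more than 0.5 in either direction with a limma adjusted p below 0.05 over all genes. By this rule 4470 of 16525 genes (27.0%) were called, 1574 (9.52%) higher and 2896 (17.5%) lower, and in 10.8% of all genes every cytokine library lay above every control library. The median of all genes was -0.17 on the CPM scale and -0.01 after TMM scaling, which gave 2168 genes higher and 1911 lower. In bulk RNA, more RNA per cell and more cells that express a gene cannot be told apart.

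**Figure D1:**
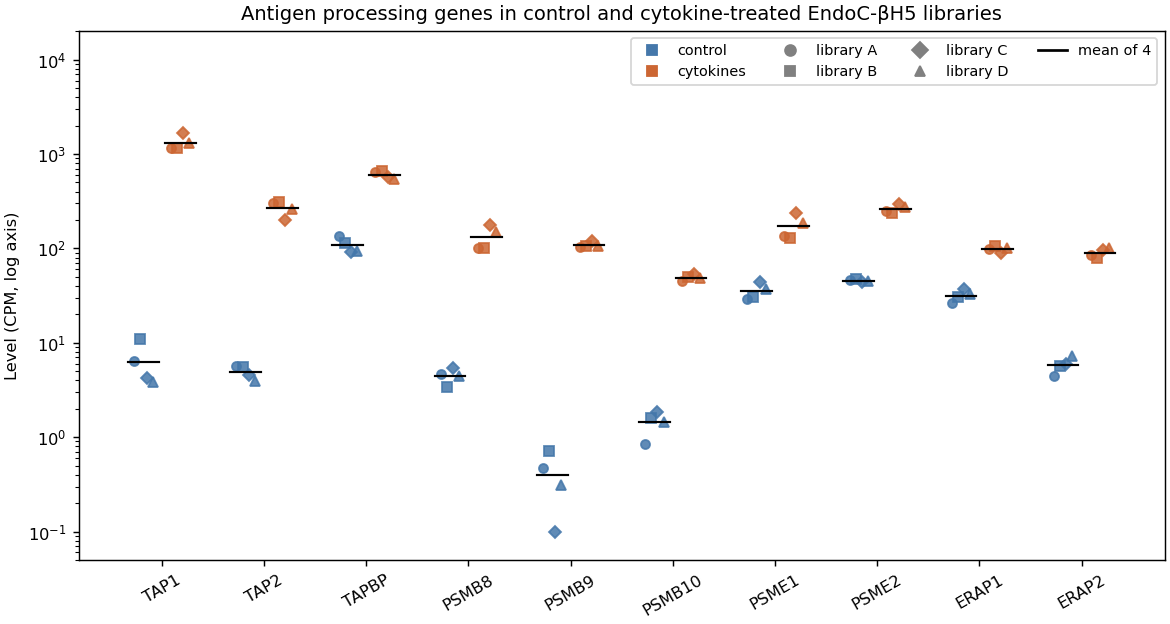
Level of the 10 genes in each library (CPM, log axis), with control libraries in blue, cytokine libraries in orange, a marker shape per library A to D, and a black line at each mean of 4. The control levels span from 0.0995 CPM for PSMB9 to 135 CPM for TAPBP, and for each gene the orange points lie above all blue points.

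The 3 inducible catalytic subunits were among the lowest genes of the group in control cells and rose by 29.5-fold to 271-fold. PSMB9 (ENSG00000240065, chr6:32844136-32859585, plus strand) measured 0.47, 0.72, 0.0995 and 0.313 CPM in control libraries A to D and 103, 106, 120 and 106 CPM in cytokine libraries A to D. Control library C was the lowest and control B the highest, while the cytokine libraries lay close together. These control values rest on 5 to 34 reads and the cytokine values on 4819 to 5957 reads. Among the control libraries only B exceeded 0.5 CPM, the authors' cut-off in 4 or more samples. PSMB9 is therefore listed only because its treated libraries were high, and its rise, ranks and ratios below carry this limit. The mean went from 0.401 ± 0.261 to 109 ± 7.7 CPM (SD, n = 4), and the log2 fold change was 7.94 (SE 0.35, limma adjusted p = 5.35e-08). PSMB9 ranked 16122 of 16525 genes by control CPM and 1307 after cytokines.

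PSMB8 (ENSG00000204264, chr6:32840717-32844703, minus strand) measured 4.66, 3.37, 5.36 and 4.5 CPM in control libraries A to D and 101, 100, 176 and 149 CPM in cytokine libraries A to D. Cytokine libraries C and D stood above A and B. Its mean went from 4.47 ± 0.825 to 132 ± 37.4 CPM (SD, n = 4), with a log2 fold change of 4.83 (SE 0.21, limma adjusted p = 4.58e-08).

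PSMB10 (ENSG00000205220, chr16:67934502-67937087, minus strand) is the only one of the 3 outside chromosome 6. It measured 0.855, 1.61, 1.85 and 1.45 CPM in control libraries A to D and 44.8, 50, 53 and 48.6 CPM in cytokine libraries A to D. Library A was the lowest of both groups. The PSMB10 mean went from 1.44 ± 0.424 to 49.1 ± 3.39 CPM (SD, n = 4), with a log2 fold change of 5.04 (SE 0.21, limma adjusted p = 3.53e-08). Of its exon bases 34.75% are shared on the same strand with ENSG00000261884, and the default counting drops reads that fall on both genes. These shares are those of GENCODE 29 and may differ in the authors' annotation.

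The constitutive counterparts of these subunits did not pass the test in either direction. PSMB5 averaged 75.8 ± 23.1 CPM in control and 66.2 ± 22 CPM in cytokine libraries (SD, n = 4; log2 fold change -0.20, limma adjusted p = 0.589). PSMB6 averaged 37.9 ± 9.59 and 40.8 ± 9.53 CPM (0.11, limma adjusted p = 0.721), and PSMB7 35.6 ± 9.39 and 31.5 ± 6.01 CPM (-0.16, limma adjusted p = 0.581). The ratio of each inducible subunit to its counterpart was therefore tested directly, with a 2-sided exact permutation test of 4 against 4 libraries whose smallest p is 0.0286, adjusted over 9 such ratios. The log2 ratio of PSMB8 to PSMB5 went from -4.02 ± 0.31 to 1.01 ± 0.07 (SD, n = 4; exact p = 0.0286, adjusted 0.0429). That of PSMB9 to PSMB6 went from -6.39 ± 1.19 to 1.44 ± 0.23, and that of PSMB10 to PSMB7 from -4.55 ± 0.24 to 0.66 ± 0.23, each with an exact p of 0.0286 (adjusted 0.0429). All 4 library pairs moved upward in each of these 3 ratios, which follows from groups that do not overlap.

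Set per length, the inducible subunit of each pair held a small share of the transcripts in control cells and the larger share after cytokines. Shares were taken from TPM, which divides reads by merged exon length and scales the result to the same sum in each library. PSMB8 made up 4.61%, 3.33%, 2.92% and 3.07% of the summed TPM of PSMB8 and PSMB5 in control libraries A to D and 54.9%, 55.3%, 52.6% and 54.2% in cytokine libraries A to D. The share of PSMB9 with PSMB6 was 0.71%, 1.03%, 0.0903% and 0.406% in control and 58.4%, 60%, 51.1% and 54.7% in cytokine libraries. PSMB10 held 3.02%, 4.65%, 3.55% and 3.78% of its pair with PSMB7 in control and 61.5%, 65.2%, 57.3% and 57.2% in cytokine libraries. In all 3 pairs every cytokine library had a larger share than every control library, and the cytokine means were 54.2 ± 1.18%, 56.1 ± 3.99% and 60.3 ± 3.83% (SD, n = 4). With the length of the longest transcript in place of merged exons, the means were 52.3%, 46.9% and 55.9%, so the order of PSMB9 and PSMB6 depends on the gene model. These are shares of mRNA and not of assembled proteasomes.

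**Figure D2:**
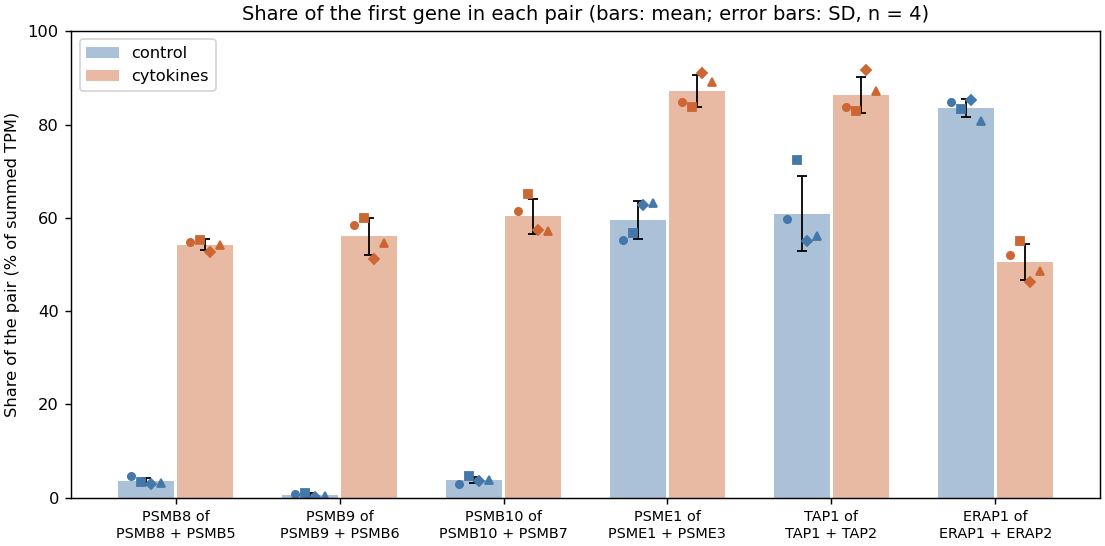
Share of the first gene in the summed TPM of each pair (%), with bars at the mean of 4 libraries, error bars of 1 SD and a point per library, blue for control and orange for cytokines. The 3 inducible catalytic subunits go from means of 0.559% to 3.75% up to 54.2% to 60.3%, while ERAP1 falls from 83.5% to 50.6% of its pair with ERAP2.

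PSME1 and PSME2 encode the alpha and beta subunits of a ring-shaped activator that opens the end of the proteasome core, and they were already well expressed in control cells. PSME1 (ENSG00000092010, chr14:24136158-24138967, plus strand) measured 29.2, 30.4, 44.2 and 37 CPM in control libraries A to D and 134, 129, 237 and 185 CPM in cytokine libraries A to D. Libraries C and D stood above A and B in both groups. The mean went from 35.2 ± 6.91 to 171 ± 50.8 CPM (SD, n = 4), and the log2 fold change was 2.25 (SE 0.21, limma adjusted p = 1.86e-05).

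PSME2 (ENSG00000100911, chr14:24143362-24147570, minus strand) lies 4394 bases from PSME1. It measured 46.8, 47.2, 43.9 and 44.7 CPM in control libraries A to D and 251, 235, 296 and 274 CPM in cytokine libraries A to D. The control libraries differed little, and cytokine libraries C and D were the highest. The mean went from 45.6 ± 1.6 to 264 ± 26.7 CPM (SD, n = 4), with a log2 fold change of 2.53 (SE 0.11, limma adjusted p = 4.58e-08). The processed pseudogenes PSME2P2 and PSME2P6 resemble PSME2 and could take up some of its reads.

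The ratio of the partner subunits moved little beside the rise of either gene. The log2 ratio of PSME1 to PSME2 was -0.39 ± 0.33 in control and -0.67 ± 0.28 in cytokine libraries (SD, n = 4), a difference of -0.27 that did not pass the 2-sided exact permutation test (p = 0.286, adjusted 0.321). Within the library pairs this change was between -0.33 and -0.23, with the ratio lower after cytokines in 4 of 4 pairs (mean -0.27, SD 0.05). An exact paired test over 4 pairs cannot give a p below 0.125. PSME3, which forms a separate nuclear activator, measured 68.4 ± 5.68 CPM in control and 68.3 ± 2.99 CPM in cytokine libraries (log2 fold change 0.00, limma adjusted p = 0.993). The log2 ratio of PSME1 to PSME3 differed by 2.25 (exact permutation p = 0.0286, adjusted 0.0429).

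The transporter genes rose more than the activator genes, and TAP1 rose more than TAP2. TAP1 (ENSG00000168394, chr6:32845209-32853978, minus strand) measured 6.37, 10.9, 4.2 and 3.83 CPM in control libraries A to D and 1170, 1151, 1659 and 1317 CPM in cytokine libraries A to D. Control B was the highest control library, and cytokine C was the highest cytokine library. The mean went from 6.34 ± 3.27 to 1324 ± 235 CPM (SD, n = 4), a 209-fold ratio, with a log2 fold change of 7.80 (SE 0.28, limma adjusted p = 1.49e-08). TAP1 was the 18th largest rise of all 16525 genes and went from rank 10644 to rank 35 by CPM.

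TAP2 (ENSG00000204267, chr6:32821833-32838780, minus strand) measured 5.73, 5.52, 4.56 and 3.97 CPM in control libraries A to D and 304, 313, 202 and 259 CPM in cytokine libraries A to D. In contrast to TAP1, cytokine library C was the lowest here. The mean went from 4.95 ± 0.828 to 269 ± 50.8 CPM (SD, n = 4), with a log2 fold change of 5.73 (SE 0.17, limma adjusted p = 2.72e-09). The log2 ratio of TAP1 to TAP2 went from 0.24 ± 0.50 to 2.30 ± 0.53 (exact permutation p = 0.0286, adjusted 0.0429), with pair changes from 0.90 to 3.15. Per length, TAP1 held 60.9 ± 7.99% of the pair's summed TPM in control and 86.4 ± 3.94% in cytokine libraries (SD, n = 4). Of the TAP2 exon bases 32.3% are shared on the same strand with another gene model, AL669918.1, and reads on these bases would be dropped by the default counting if the authors' annotation also holds that model, which was not tested. AL669918.1 itself was not among the listed genes.

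TAPBP, the gene of tapasin (ENSG00000231925, chr6:33299694-33314387, minus strand), had the highest control level of the 10 genes in CPM. It measured 135, 113, 91.6 and 94 CPM in control libraries A to D and 651, 654, 570 and 540 CPM in cytokine libraries A to D. In both groups A and B stood above C and D. The TAPBP mean went from 108 ± 20.3 to 604 ± 57.9 CPM (SD, n = 4), with a log2 fold change of 2.49 (SE 0.15, limma adjusted p = 5.9e-07). TAPBPL, the gene of the tapasin-related peptide editor, rose from 21.4 ± 1.06 to 96.6 ± 4.73 CPM (log2 fold change 2.17, SE 0.10, limma adjusted p = 9.18e-08). The log2 ratio of TAPBP to TAPBPL differed by 0.32 between the groups, which did not pass the exact permutation test (p = 0.143, adjusted 0.184).

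Of the trimming enzymes, ERAP1 was the more abundant in control cells and ERAP2 rose more. ERAP1 (ENSG00000164307, chr5:96760810-96808100, minus strand) measured 26.4, 30.4, 37 and 32.7 CPM in control libraries A to D and 98.6, 105, 88.8 and 102 CPM in cytokine libraries A to D. Library C was the highest control and the lowest cytokine library, and even so the groups did not overlap. The mean went from 31.6 ± 4.44 to 98.6 ± 7.01 CPM (SD, n = 4), the smallest change of the 10 genes, with a log2 fold change of 1.65 (SE 0.13, limma adjusted p = 4.59e-06).

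ERAP2 (ENSG00000164308, chr5:96875939-96919716, plus strand) lies 67838 bases from ERAP1. It measured 4.43, 5.71, 6.01 and 7.25 CPM in control libraries A to D and 84.7, 79.6, 96.2 and 101 CPM in cytokine libraries A to D. In both groups C and D stood above A and B. The mean went from 5.85 ± 1.16 to 90.3 ± 9.81 CPM (SD, n = 4), a 15.4-fold ratio, with a log2 fold change of 3.94 (SE 0.16, limma adjusted p = 2.85e-08). The log2 ratio of ERAP1 to ERAP2 fell from 2.42 ± 0.20 to 0.13 ± 0.22 (exact permutation p = 0.0286, adjusted 0.0429). It was lower in 4 of 4 pairs, which follows from groups that do not overlap. ERAP1 made up 83.5 ± 1.97% of the pair's summed TPM in control and 50.6 ± 3.86% in cytokine libraries (SD, n = 4).

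Ordered by TPM, the activator and tapasin genes led in control cells and PSMB9 was last. TAPBP (80.9 ± 6.82 TPM) and PSME1 (77.1 ± 24.8) overlapped at the top, followed without overlap by PSME2 (48.7 ± 5.32) and then ERAP1 (15.4 ± 4.07; SD, n = 4 throughout). PSMB8 (5.79 ± 1.65), TAP1 (4.83 ± 1.93), ERAP2 (3.08 ± 0.986), PSMB10 (3.03 ± 1.12) and TAP2 (2.92 ± 0.148) followed, and neighbours in this order overlapped. PSMB9 was below all of them at 0.472 ± 0.267 TPM.

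After cytokines the order changed at the top, where TAP1 reached 1157 ± 313 TPM, above every library of the next gene, TAPBP (492 ± 11.4 TPM). Neighbours overlapped from TAPBP through PSME1 (408 ± 159), PSME2 (309 ± 64.2), PSMB8 (187 ± 71.6), TAP2 (173 ± 21.7) and PSMB9 (147 ± 24.2) to PSMB10 (110 ± 17.8 TPM). The aminopeptidases came last, ERAP1 at 51.4 ± 6.1 and ERAP2 at 51 ± 11.4 TPM, separate from PSMB10 and overlapping each other. The mean levels of the 3 inducible catalytic subunits spanned 0.472 to 5.79 TPM in control and 110 to 187 TPM in cytokine libraries.

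TAP2, PSMB8, TAP1 and PSMB9 form a cluster of 37.8 kb in the class II region of chromosome 6. The 5′ end of TAP2 lies 1936 bases from PSMB8, and the 5′ end of PSMB8 lies 505 bases from TAP1, all on the minus strand. PSMB9 runs on the plus strand, and its annotated span (chr6:32844136-32859585) covers that of TAP1, while none of their exon bases overlap. The RefSeq start of PSMB9 differs from the start of this span. It lies within chr6:32854092-32854221, beyond the 5′ end of TAP1 at chr6:32853978. From the RefSeq start, PSMB9 and TAP1 run away from each other. Which start these cells use was not tested. PSMB8-AS1, an antisense RNA on the plus strand, shares 20.62% of the PSMB8 exon bases and 9.49% of those of TAP1 on the opposite strand, and 5.664% of the PSMB9 exon bases on the same strand. It rose from 0.474 ± 0.25 to 13.6 ± 1.24 CPM (SD, n = 4; log2 fold change 4.69, limma adjusted p = 1.13e-06). With 9 to 41 reads in control libraries, PSMB8-AS1 passed the authors' filter only through treated libraries, and its rise carries this limit. The kit kept strand, and the default counting uses it.

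**Figure D3:**
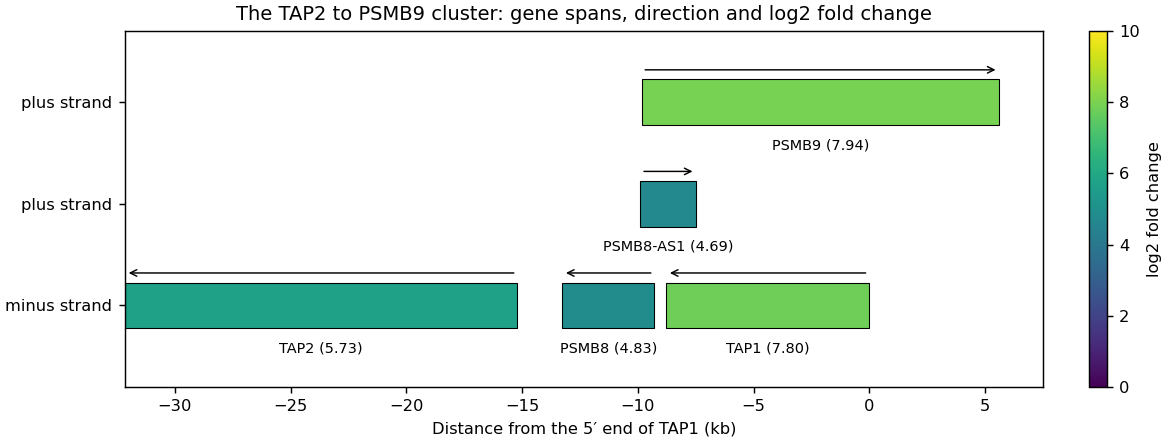
Map of the cluster to scale, with distance from the 5′ end of TAP1 in kb on the x axis and rows of boxes labelled by strand. PSMB8-AS1 and PSMB9 have separate rows on the plus strand. Arrows give the direction of transcription, and colour and numbers the log2 fold change. TAP1 (7.80) and PSMB9 (7.94) on opposite strands have the largest changes, and TAP2 (5.73), PSMB8 (4.83) and PSMB8-AS1 (4.69) follow. The PSMB9 box is its whole annotated span, while its RefSeq start lies beyond the 5′ end of TAP1.

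TAP1 and PSMB9, which lie on opposite strands, had the largest changes of the 10 genes, and a difference between them was not detected. Their log2 CPM ratio was 3.73 ± 0.51 in control and 3.59 ± 0.16 in cytokine libraries (SD, n = 4), a difference of -0.14 that did not pass the exact permutation test (p = 0.743, adjusted 0.743). The pair changes ran from -0.64 to 0.39. PSMB9 had 5 to 34 reads in control libraries, and with a pseudocount of 0.5 or 1 CPM the difference became 0.73 or 1.27 (exact permutation p = 0.0286 for each).

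The nearest listed genes around the 10 did not all move with them. For the cluster (chr6:32821833-32859585) these lie at a distance, NOTCH4 ending at chr6:32224067 and HLA-DMA beginning at chr6:32948613. HLA-DMA, a class II peptide exchange factor, went from 0.832 ± 0.327 to 2.61 ± 1.31 CPM (log2 fold change 1.47, limma adjusted p = 0.0207), with overlapping groups. NOTCH4 fell from 1.98 ± 0.326 to 1.2 ± 0.26 CPM (-0.69, limma adjusted p = 0.0491). The neighbours of TAPBP, RGL2 (-0.41, limma adjusted p = 0.0182) and ZBTB22 (-0.18, limma adjusted p = 0.36), were not called. On chromosome 14, DCAF11 (-0.15), EMC9 (0.29) and RNF31 (0.36) were not called. ENSG00000259321, a low gene between PSME1 and PSME2, rose from 0.666 ± 0.258 to 2.66 ± 0.851 CPM (1.86, limma adjusted p = 0.00133). This gene had 19 to 51 reads in control libraries and HLA-DMA had 20 to 54. Both passed the authors' filter only with the help of treated libraries, and their rises carry this limit. Beside ERAP1 and ERAP2, CAST (0.49, limma adjusted p = 0.0153) fell just short of the fold threshold, and ENSG00000247121 (-0.39) and LNPEP (-0.34) were not called. Beside PSMB10, LCAT was not called (0.13), while the overlapping ENSG00000261884 rose from 1.06 ± 0.495 to 20.7 ± 8.55 CPM (4.17, limma adjusted p = 1.26e-05). That gene shares exon bases with PSMB10, and how many of its reads belong to either gene was not tested.

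The column names put the libraries in pairs, each control library with 1 cytokine library (A to D), and the names of A and B share an ending, as do those of C and D. Each of the 10 genes was higher in the cytokine library of all 4 pairs, which follows from groups that do not overlap and adds no separate support. The pairs differed most for TAP1 and PSMB9. TAP1 changed by 7.50, 6.70, 8.59 and 8.39 in pairs A to D, and PSMB9 by 7.49, 7.02, 9.23 and 8.0 (log2). For both the changes of C and D were the larger, by 1.39 (SE 0.29) for TAP1 and 1.36 (SE 0.43) for PSMB9. In a limma interaction fit over all genes these differences had unadjusted p of 0.000598 and 0.00884 and adjusted p of 0.572 and 0.999. None of the 10 genes passed at an adjusted p of 0.05, 2 of them had an unadjusted p below 0.05, and 5 of 16525 genes (0.0303%) passed. The other 8 genes differed between the name endings by -0.39 to 0.38.

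**Figure D4:**
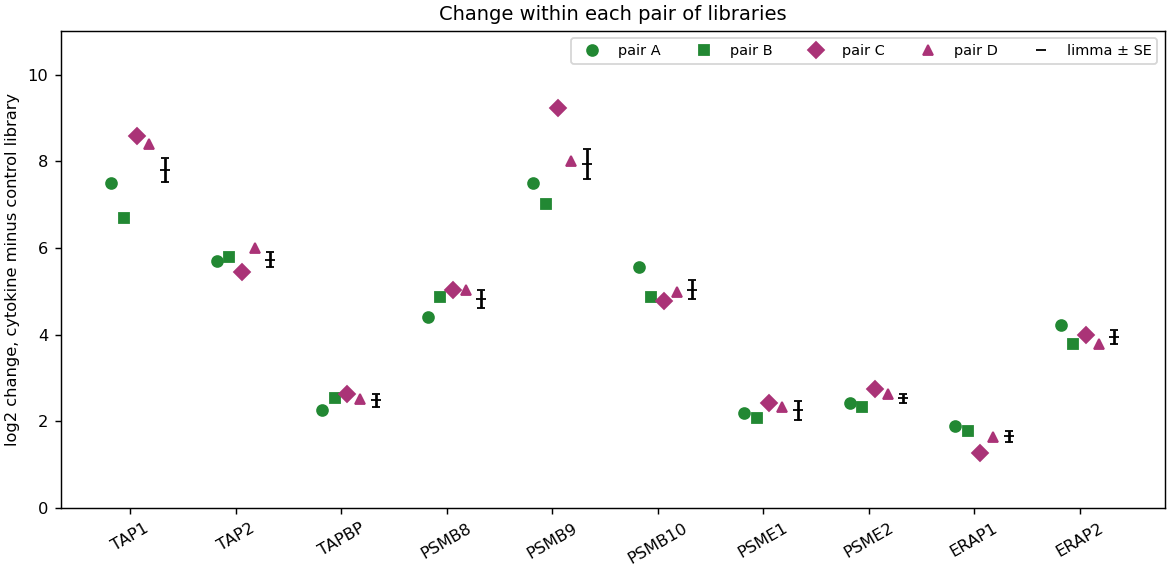
Change of each gene within each library pair (log2, cytokine minus control library, on log2(CPM + 0.1)), pairs A and B in green, C and D in purple, with the limma estimate and its SE in black. Each point lies above 0, from 1.26 for ERAP1 in pair C to 9.23 for PSMB9 in pair C.

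Across the rest of the pathway, all class I molecules reported rose, while the count of constitutive core subunits that passed depended on the test. The 5 class I genes reported were all called higher, with a median log2 fold change of 6.31, against 9.52% of all genes called higher. HLA-G was not among the listed genes. HLA-B went from 3.95 ± 2.42 to 1651 ± 428 CPM (8.84, limma adjusted p = 2.92e-08), HLA-F from 0.363 ± 0.282 to 128 ± 14.1 CPM (8.33, limma adjusted p = 9.54e-08) and HLA-C from 35.4 ± 7.67 to 2807 ± 580 CPM (6.31, limma adjusted p = 3.71e-09). HLA-E (5.00) and B2M (3.97), the shared light chain, reached means of 3368 and 4297 CPM. Reads of HLA genes of similar sequence can be split or shared by the counting, so the separate levels of the HLA genes are uncertain.

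Of the 14 constitutive core subunits 4 were called higher and none lower, with a median log2 fold change of 0.43, against 9.52% of all genes called higher. PSMA6 rose most, from 1.62 ± 0.545 to 7.12 ± 1.52 CPM (2.1, limma adjusted p = 0.000145), and PSMA4 (0.73), PSMA1 (0.69) and PSMB3 (0.60) passed with limma adjusted p of 0.0209 to 0.028. With the library pair as a replicate block PSMA3 (0.57, limma adjusted p = 5.95e-05) and PSMA5 (0.63, 6.1e-06) passed as well. PSMA1, PSMA4 and PSMB3 each lost their call when 1 of several libraries was left out, and the count was 2 without control A, B or D or without cytokine library C or D. It was 6 with TMM scaling, 7 with DESeq2 and 9 with edgeR, TMM and the replicate block. PSMA6, PSMA1 and PSMA2 share 14.1%, 24.7% and 14.6% of their exon bases with another gene on the same strand. Their control means (1.62, 4.55 and 1.58 CPM) were the lowest of the core, below PSMA3 at 17.1 CPM. The default counting drops reads that fall on 2 genes, so their levels and changes are uncertain. How many reads were dropped was not tested. The subunits of highest mean level, PSMB4 (74.2 ± 7.72 and 93.6 ± 13.5 CPM in control and cytokine libraries), PSMB5 and PSMB2 (62.6 ± 8.97 and 74.2 ± 8.88 CPM), were not called.

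Among 8 genes of other activators, the inhibitor and assembly chaperones, 2 were called higher and none lower (median 0.03), against 9.52% of all genes called higher. POMP, the maturation factor that assembles new core particles, rose from 21.9 ± 6.06 to 44.1 ± 7.29 CPM (1.04, limma adjusted p = 0.00276). PSME4, a single-chain activator, rose from 43.4 ± 3.81 to 94 ± 9.65 CPM (1.11, limma adjusted p = 5.61e-05). The inhibitor gene PSMF1 measured 221 ± 39.6 and 228 ± 39.8 CPM (0.05) and PSMG3, an assembly chaperone, 14.9 ± 3.45 and 10.1 ± 2.21 CPM (-0.55, limma adjusted p = 0.0661). With library pairs as a replicate block PSMG3 was called lower (limma adjusted p = 0.000222).

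Of 5 loading chaperones 3 were called higher (median 0.54), against 9.52% of all genes. PDIA3, the disulphide isomerase joined to tapasin, rose from 345 ± 99.3 to 776 ± 162 CPM (1.19, limma adjusted p = 0.00185). CALR, the gene of calreticulin, went from 517 ± 96.6 to 728 ± 109 CPM and only just passed (0.50, limma adjusted p = 0.0421). Its call was lost when any library other than control C was left out. CANX, the gene of calnexin, did not pass at 375 ± 132 and 534 ± 135 CPM (0.54, limma adjusted p = 0.117), but did with library pairs as a replicate block (limma adjusted p = 9.99e-06).

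Of 8 other peptidases 2 were called higher (median 0.02), against 9.52% of all genes. LAP3, a leucine aminopeptidase, rose from 14.4 ± 3.94 to 302 ± 64 CPM (4.39, limma adjusted p = 8.67e-08). HM13, the signal peptide peptidase, rose from 146 ± 22.7 to 312 ± 54.4 CPM (1.09, limma adjusted p = 0.0004). NRDC (0.37, limma adjusted p = 0.028) stayed under the fold threshold on the CPM scale but passed it with TMM scaling (0.52, limma adjusted p = 0.0015). LNPEP (-0.34), THOP1 (-0.30), TPP2 (-0.20), NPEPPS (-0.08) and BLMH (0.13) did not pass.

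Of 10 regulators of these genes 7 were called higher and none lower (median 3.04), against 9.52% of all genes called higher. NLRC5, the transactivator of class I genes, went from 2.06 ± 1.37 to 420 ± 54.4 CPM (7.80, limma adjusted p = 6.45e-08), and IRF1 from 11.3 ± 1.05 to 755 ± 157 CPM (6.03, limma adjusted p = 8.74e-10). STAT2 reached 375 ± 113 CPM from 88.4 ± 19.1 (2.05). CIITA (4.69), IRF8 (4.21), IRF9 (4.03) and IRF2 (1.26) were also called. IRF9 and CIITA share 48.4% and 11.5% of their exon bases with another gene on the same strand. The DNA-binding subunits RFX5 (0.22), RFXAP (-0.21) and RFXANK (-0.36), which recruit NLRC5 and CIITA to promoters, were not. The lists were chosen with earlier results of these data known, so their counts describe the pathway and test nothing.

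**Figure D5:**
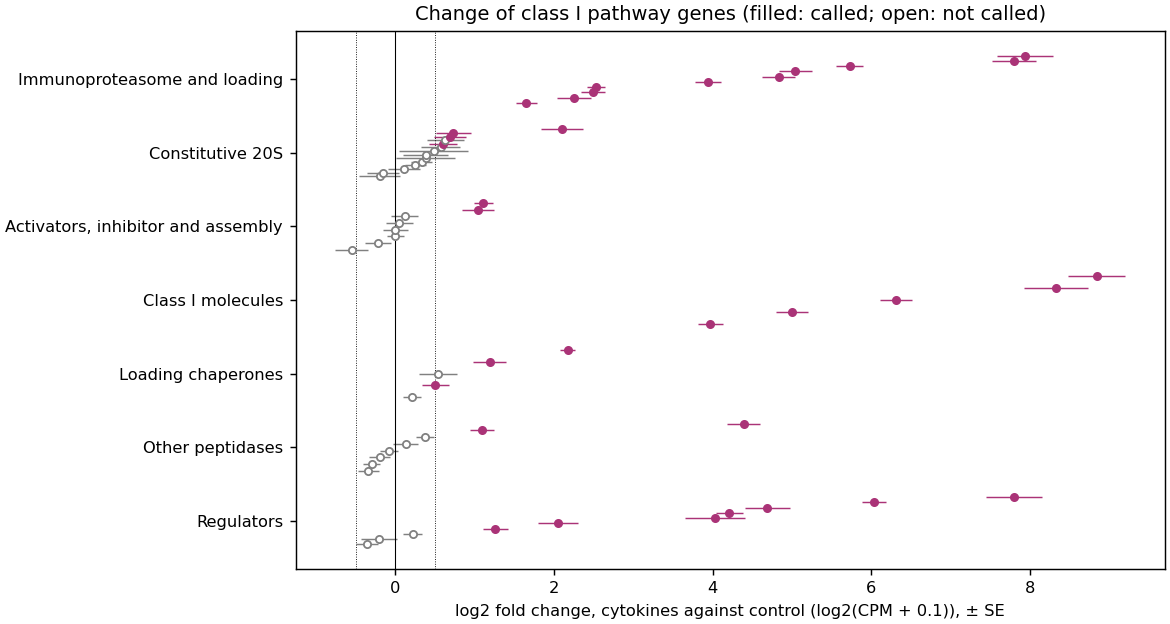
Log2 fold change of the reported genes of the pathway lists (x axis, on log2(CPM + 0.1)), a row per list, with SE bars, filled points for called genes and open grey points for the rest, and dotted lines at the fold threshold of 0.5. The class I molecules span 3.97 to 8.84, the 10 genes 1.65 to 7.94 and the constitutive core -0.20 to 2.1. PSMA6 of the core, a low gene that shares exon bases with another gene, lies above ERAP1.

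The genes whose pattern over the 8 libraries was most like the mean of the 10 (standardised log2 values) were SAMD4A, SNORD14E, IRF1, APOL6 and ETV7, with Pearson r from 0.9990 to 0.9996. With 2 groups this far apart any gene with a large and even change scores high, and 124 genes had r above 0.99. SAMD4A measured 8.78 to 9.44 CPM in control and 43 to 46.4 CPM in cytokine libraries. SNORD14E had 0 reads in the 4 control libraries, which allows up to 3 reads each (0.0587 to 0.0641 CPM), and 1.06 to 1.15 CPM after cytokines. Among the 10 themselves PSME2 was closest to their mean (r = 0.999) and PSME1 farthest (r = 0.973).

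The libraries held 36956294 to 40117636 reads on the listed genes in control and 36577438 to 39348935 in cytokine cells. The 9 beta-cell markers reported were all detected, with a summed level of 24009 to 36426 CPM in control and 29092 to 52790 CPM in cytokine libraries. CHGA made most of this sum (19221 ± 3843 and 25501 ± 7243 CPM), while INS averaged 2169 ± 744 and 1846 ± 322 CPM, and neither was called. CPM are not set per length. Same-strand exon overlap was not checked for the marker genes, so their levels and calls carry these limits. Of the 9 markers, 4 (PDX1, MAFA, SLC30A8 and ABCC8) were called lower and none higher, beside 17.5% of all genes called lower. Of 8 immune markers only CD14 and CD74 were found by symbol among the listed genes, which are those that passed the authors' CPM filter. Their sum was 193 to 340 CPM in control and 1647 to 2726 CPM in cytokine libraries. CD74, the class II invariant chain, made nearly all of it, at 266 ± 81.7 and 2190 ± 553 CPM (SD, n = 4), while the monocyte marker CD14 was at 2.2 ± 0.913 and 1.5 ± 0.341 CPM. None of 4 endothelial markers was among the listed genes. The 2 of 4 mesenchymal markers that were listed summed to 3.56 to 5.3 CPM in control and 4.29 to 6.41 CPM in cytokine libraries. The 2 of 5 exocrine markers that were listed summed to 88.2 to 167 and 84.6 to 166 CPM, nearly all of it KRT19 (log2 fold change 0.01). CPA1 fell from 8.41 ± 0.693 to 4.04 ± 0.924 CPM (-1.06, limma adjusted p = 0.00201). The 4 other hormone genes summed to 463 to 2177 and 553 to 1996 CPM, and none was called. SST made most of this sum, at 1219 ± 868 and 1216 ± 766 CPM (SD, n = 4). It was higher in libraries A and B than in C and D in both groups. GCG averaged 93.3 ± 94 and 34.5 ± 34.7 CPM. The part of any such cell in the rise of the 10 genes was not tested.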

How the data were processed

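RNA of 4 control and 4 cytokine-treated EndoC-βH5 samples was sequenced as 100 bp read pairs from a strand-specific kit. The authors trimmed reads with SOAPnuke, aligned them to GRCh38 with TopHat 2.1.1, counted them on Ensembl release 107 genes with htseq-count 0.9.1 at default settings, and removed genes that did not exceed 0.5 CPM in 4 or more samples. Under this filter PSMB9, HLA-F, CIITA, SNORD14E, PSMB8-AS1, HLA-DMA and ENSG00000259321 would not be listed from the control libraries alone. They are listed only because treated libraries were high, so their rises are not independent of the filter. The deposited values are CPM, reads per 1000000 of the library total. Another 4 columns of the table were not used, since their names match no sample label. All values used were whole multiples of 1 read (tolerance 0.01), worth 0.0196 to 0.0214 CPM, so reads could be recovered. For a count of 0 the limit was set at 3 reads, for counting error only. Of each total, 20.07% to 26.57% fell outside the listed genes. No library was a copy of another, but A and B were the most alike in each group. Their mean chi-square per gene was 13.3 in control and 5.9 in cytokine libraries. Other combinations gave 66.9 to 296 in control and 84.7 to 253 in cytokine libraries. The tests without a block treat all libraries of a group as equally separate.

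The 10 genes and the pathway and marker lists were chosen with earlier results of these data known. Genes named are the 10, the called genes and the 3 of highest mean CPM of each pathway list, the nearest listed gene on either side of each of the 10, and the 5 genes of most similar pattern. A few further list genes and markers were named after their values were seen. Some genes of the lists are not reported here and are left out of the list counts. The test was limma 3.58.1 (R 4.3.3) with an intensity trend on log2(CPM + 0.1), 4 against 4 libraries without a block, with Benjamini-Hochberg adjustment over 16525 genes and the study's thresholds. Ratios of 2 genes were compared by exact permutation tests (scipy 1.17.1). Alternatives used TMM or median-of-ratios scaling, pseudocounts of 0.5 and 1, a filter at a mean of 1 CPM, no trend, edgeR 4.0.16 and DESeq2 1.42.0 on recovered reads, a replicate block, a series term and each library left out. edgeR with a replicate block was added after the data were seen. The scripts were tested on simulated data. Columns carry no replicate number, and pairs A to D come from the shared first part of their names. As a check of this pairing, each library's deviation from its group mean was compared across genes, and r was 0.46, 0.50, 0.75 and 0.68 for A, B, C and D. Crossing A and B gave r of 0.45 and 0.49, so the check cannot separate these 2 pairs. Gene models and lengths are those of GENCODE 29 on GRCh38, which held 16167 of the listed genes (97.8%), all on the table's chromosome. TPM was computed from recovered reads and merged exon lengths.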

Additional observations from a re-analysis of the deposited data

How the results depend on the processing

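All 10 genes kept their direction and their call in each of 19 alternatives (190 of 190 values), among them every scaling, pseudocount, test and left-out library. With the replicate block A to D, 10 of 10 were called, and the block changed no call among them. The log2 fold change ranged from 6.31 to 8.25 for PSMB9, from 7.58 to 8.10 for TAP1 and from 1.56 to 1.81 for ERAP1 over these alternatives, and the largest limma, edgeR or DESeq2 adjusted p was 0.000146, for PSME1. Within A and B and within C and D the change of TAP1 was 7.10 and 8.49, and that of PSME2 2.37 and 2.68. The constitutive core had 4 genes called higher, but 7 with DESeq2, 9 with edgeR, TMM and the replicate block, and 2 to 6 when a library was left out (2 without control A, B or D or cytokine library C or D, 6 without control C). Among the activators, inhibitor and assembly genes no gene was called lower, but 1 (PSMG3) was with the replicate block and 1 with the series term, and 0 to 1 when a library was left out (1 without control A or cytokine library C). The TAP1 to PSMB9 log2 ratio difference of -0.14 became 0.73 and 1.27 with pseudocounts of 0.5 and 1, and ran from -0.30 to 0.09 when a library was left out. Of all genes, 2896 were called lower, against 1911 with TMM, 1883 with median-of-ratios scaling and 1892 with edgeR, and 1574 were called higher, against 2627 with edgeR, TMM and the replicate block. The causes were not tested. With longest-transcript lengths the mean TPM became 6.37, 2.64, 87.7 and 96.4 for TAP1, TAP2, TAPBP and PSME1 in control cells, which puts PSME1 above TAPBP, and 1459, 517, 131 and 58.1 for TAP1, TAPBP, PSMB10 and ERAP1 in cytokine-treated cells. Depth limits PSMB9 most, with 5 to 34 reads in control libraries.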
